A study of Mus musculus with 4 samples.

Results

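The IL-6 family of cytokines and receptors was followed through 4 single-cell RNA-seq libraries of mouse Achilles tendon as 10 named genes: the ligands Il6, Il11, Lif and Osm, the receptor chains Il6ra, Il11ra1, Lifr and Osmr, the shared receptor chain Il6st, which encodes gp130, and the feedback inhibitor Socs3. The genes were listed by name and no measured value set the list, though earlier results of these data were known when it was chosen. All 10 were found among the 27040 gene identifiers that the 4 libraries share. All values are raw counts of unique molecular identifiers (UMIs, each a tag for 1 captured RNA molecule). The question was which cell types carried the ligands and which carried the receptors in each library.

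Each group is 1 library, for which cells of 5 Achilles tendons were combined, so no comparison between groups has a replicate and none carries a test. The Prox1 eGFP day 0 library came from uninjured tendon with no treatment, according to the series' design text. The Prox1 eGFP day 7 and day 21 libraries and the Vegfc CRE day 7 library came from tendon after B/T, an abbreviation that the labels do not spell out. All 4 were digested with collagenase and dispase, and the shared protocol describes a sort for Prox1-expressing cells, while the cell type label of all 4 reads unsorted. Which promoter drives eGFP or CRE, the strain, the age and the sex of the mice are not given in the sources used here. The Vegfc CRE library therefore differs from the Prox1 eGFP day 7 library in mouse line as well as in the cells it holds.

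The files held 717 to 8711 barcodes and 6761289 to 92568978 UMIs a library, and 686 cells of the uninjured library, 4682 and 6062 cells of the Prox1 eGFP line on days 7 and 21, and 6671 cells of the Vegfc CRE library were analysed, with a median of 7036.5 to 8452.5 UMIs a cell. Any pair of libraries shared 2 to 14 barcodes. The libraries stand apart in what they hold. Prox1, the gene named by the sort, had a UMI in 96.7% of cells at day 7 and 86.6% at day 21 of the Prox1 eGFP line, but in 8.89% at day 0 and in 1.08% of the Vegfc CRE library. Ptprc, which encodes the pan-leukocyte marker CD45, had a UMI in 86.0% of the day 0 cells and 52.0% of the Vegfc CRE cells, against 0.705% and 1.78% at days 7 and 21. Tnmd, a defining tenocyte gene, was found in 0 of 686 cells at day 0, and in 0.235%, 3.65% and 12.4% of the cells of the day 7, day 21 and Vegfc CRE libraries, in that order. So day 0 was largely leukocytes, and the Prox1 eGFP libraries after B/T held 70.8% and 51.7% muscle progenitor-like cells. No value below pools libraries, apart from the likeness of genes near the end.

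IL-6 family cytokines signal by bringing gp130 together with a partner chain. Interleukin-6 and interleukin-11 bind a ligand-specific chain (Il6ra or Il11ra1) that has no signalling role of its own and then recruit gp130, whereas LIF and oncostatin M bridge gp130 with the signalling chains encoded by Lifr or Osmr. JAK kinases bound to these chains phosphorylate STAT3, and Socs3, a STAT3 target gene, encodes a protein that binds gp130 and JAK and shuts the signal off. In injured muscle and tendon the family is known for roles in inflammation, muscle stem cell behaviour and matrix turnover.

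Positions are those of GENCODE M21 on GRCm38 (mm10), the build named in the submitters' processing notes, and every member is a protein-coding gene. Il6 lies at chr5:30013114-30019981 on the plus strand, Il11 at chr7:4772373-4782859 on the minus strand, and Il6ra at chr3:89864059-89913196 on the minus strand. Osm (chr11:4236420-4241026) and Lif (chr11:4257557-4272514) are neighbours on the plus strand, 16530 bases apart. Osmr (chr15:6813577-6874969, minus) and Lifr (chr15:7090614-7197489, plus) lie 215644 bases apart. Il11ra1 lies at chr4:41699989-41769474 (plus), Il6st at chr13:112464070-112510086 (plus) and Socs3 at chr11:117966079-117970047 (minus).

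The promoters of Socs3 and Il6 are shown because Socs3 is the family's feedback gene and Il6 the ligand with the most UMIs in the Prox1 eGFP day 7 and day 21 libraries. Each is the RefSeq window (GRCm38.p6) from 250 bases before to 50 bases after a transcript start, printed 5′ to 3′ on the gene's own strand, with matches to the motifs searched in capitals.
Socs3, chr11:117969317-117969616, minus strand: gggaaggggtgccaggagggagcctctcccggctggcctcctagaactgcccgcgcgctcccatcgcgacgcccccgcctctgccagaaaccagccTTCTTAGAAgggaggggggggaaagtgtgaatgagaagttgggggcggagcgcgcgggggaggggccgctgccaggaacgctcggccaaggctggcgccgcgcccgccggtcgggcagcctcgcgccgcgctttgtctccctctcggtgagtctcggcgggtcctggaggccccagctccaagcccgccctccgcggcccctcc
Il6, chr5:30012864-30013163, plus strand: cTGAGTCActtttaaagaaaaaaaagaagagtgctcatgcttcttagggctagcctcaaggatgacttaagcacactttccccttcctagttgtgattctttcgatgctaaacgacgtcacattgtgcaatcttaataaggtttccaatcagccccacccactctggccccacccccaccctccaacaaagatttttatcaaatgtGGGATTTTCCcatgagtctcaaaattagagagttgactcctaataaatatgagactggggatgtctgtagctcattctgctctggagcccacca
The motifs below were searched on both strands: the STAT motif TTCNNNGAA, the NF-kB motif (GGGA, any base, then TTTCC) and the AP-1 motif TGAGTCA. No match of one overlapped another in these windows. The capitals in Socs3, TTCTTAGAA, match the STAT motif and begin 154 bases before the start. In Il6 the AP-1 match TGAGTCA begins 249 bases before the start, and the NF-kB match GGGATTTTCC begins 44 bases before it. RefSeq held 12 windows for 9 of the 10 members, all but Osm. The STAT motif stood in 1 of the 12 (Socs3), the NF-kB motif in 1 (Il6) and the AP-1 motif in 3 (1 each for Il6, Il11 and Lif). Of all 32851 promoter windows, 8.30% held the STAT motif, 0.411% the NF-kB motif and 5.20% the AP-1 motif. A match describes the letters only; no binding was measured here.

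Cells were grouped into 26 clusters without the 10 genes or the pathway genes named below, so that the family's own levels did not build the groups. A cluster was named from at least 3 markers of a cell type and carries "-like" in its name. Muscle progenitor-like cells (Pax7, Myod1 and other markers) filled 3 clusters, and lymphatic endothelial-like cells 3 more. Vascular endothelial-like and macrophage-like cells filled a pair of clusters each. The 5 unnamed clusters are given by number and by leading genes: cluster 7 (Chil3, Ccr2, Ly6c2), cluster 8 (Cxcl5, Tnc, Timp1), cluster 14 (Myog, Mymk), cluster 15 (Cd209a, Flt3, Clec9a) and cluster 19 (Top2a). A level is the class's summed UMIs of a gene divided by all UMIs of the class and scaled as CPM, the usual unit for libraries of unequal depth, given for classes of at least 30 cells in a library, 33 combinations of class and library in all. Intervals in parentheses are exact 95% Poisson intervals for levels and cover counting error only.

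**Figure D1:**
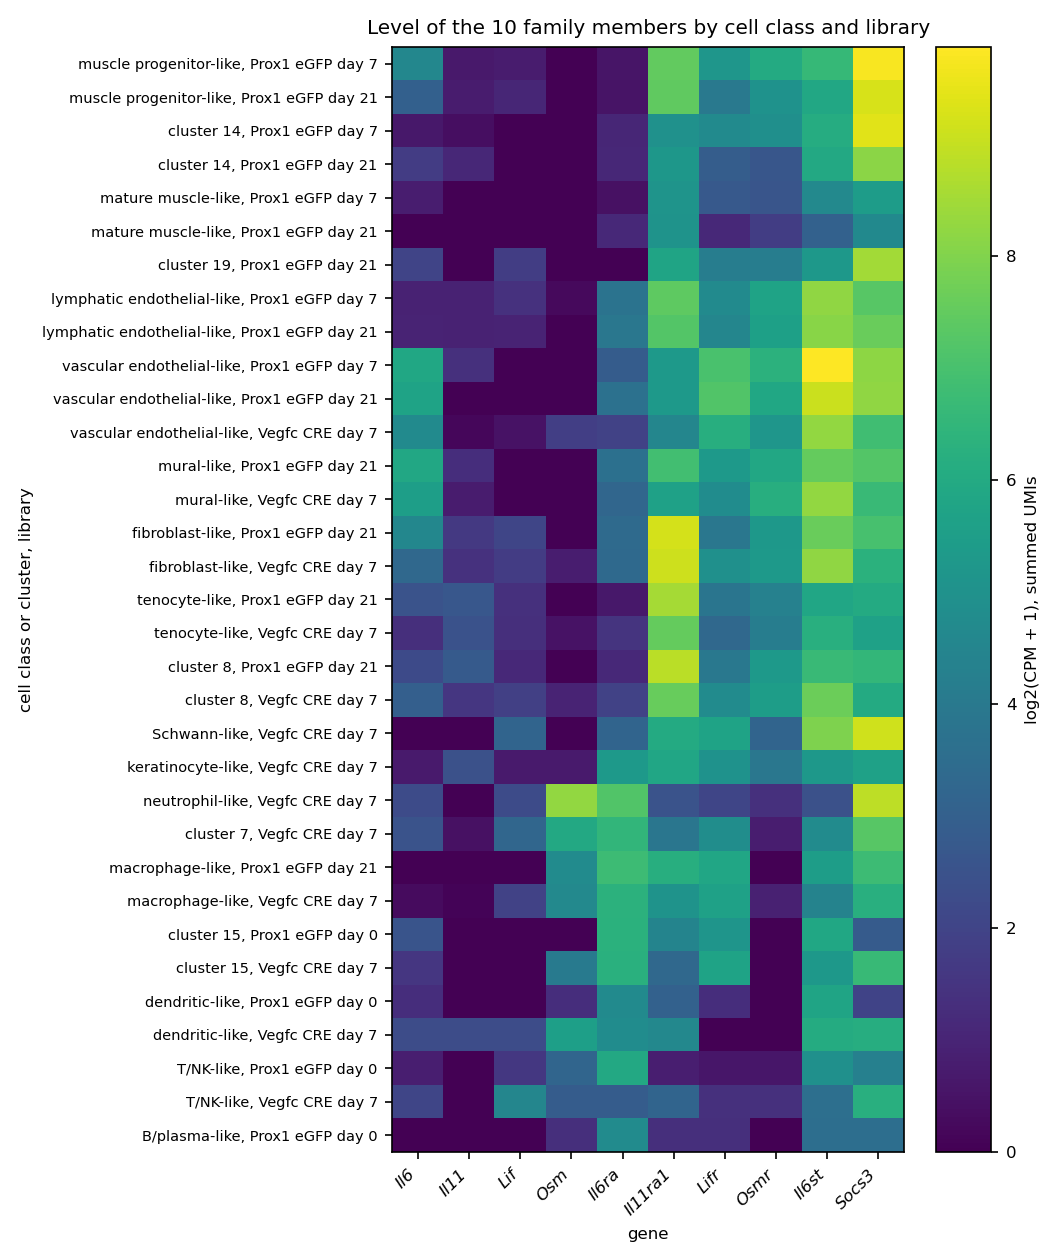
Level of the 10 family members, as log2(CPM + 1) of summed UMIs, in the 33 combinations of cell class or cluster (rows, with their library) and gene (columns). Osm is bright in the neutrophil-like row, Il11ra1 in the fibroblast-like rows, Il6st in the vascular endothelial-like rows and Socs3 in the muscle progenitor-like rows.

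Il6, the family's founding ligand, stood highest in CPM in vascular endothelial-like or mural-like cells after B/T, while most of its UMIs lay in muscle progenitor-like cells at day 7. At day 7 in the Prox1 eGFP line it stood at 22.7 CPM (20.9 to 24.6) in muscle progenitor-like cells, which held 600 UMIs or 88.8% of the library's Il6. The 33 vascular endothelial-like cells stood higher, at 57.1 CPM (40.0 to 79.1), but their 36 UMIs lay in 7 cells with 18 in a single one, and the level without that cell was 29.8 CPM. Lymphatic endothelial-like cells, at 0.937 CPM (20 UMIs), mature muscle-like cells, at 0.721 CPM, and cluster 14, at 0.552 CPM, were low, with overlapping intervals. A UMI of Il6 was found in 6.12% of muscle progenitor-like cells (5.33 to 6.99, exact Clopper-Pearson) at a median of 7550 UMIs, and in 1.89% of lymphatic endothelial-like cells at a median of 18824 UMIs. Expression was uneven among muscle progenitor-like cells: 35 cells with 5 or more UMIs held 337 of the 600, and the highest single cell had 25.

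At day 21 the muscle progenitor-like level was 7.20 CPM (6.10 to 8.43; 153 UMIs), in 2.61% of cells. Mural-like cells, the contractile cells of vessel walls, led at 59.9 CPM (43.2 to 81.0), and vascular endothelial-like cells followed at 51.7 CPM (38.1 to 68.6) with overlapping intervals. The vascular value again rested on few cells, 48 UMIs in 10 cells, and was 34.7 CPM without the highest one. Fibroblast-like cells stood at 22.6 CPM (18.7 to 27.1). The library's Il6 UMIs were divided between muscle progenitor-like cells (37.0%), fibroblast-like cells (28.8%), vascular endothelial-like cells (11.6%) and mural-like cells (10.2%). Lymphatic endothelial-like cells stood at 1.00 CPM, and none of the 51 macrophage-like cells had an Il6 UMI, which at a floor of 3 counts allows a share of cells with a UMI of up to 5.88%.

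In the Vegfc CRE day 7 library mural-like cells were highest, at 45.3 CPM (37.9 to 53.7), with a UMI in 23.2% of them. Vascular endothelial-like cells stood at 25.1 CPM (21.6 to 29.0), fibroblast-like cells at 9.06 CPM (7.53 to 10.8), and cluster 8 at 7.00 CPM (5.96 to 8.17), the last pair with overlapping intervals. These 4 groups held 28.0% (vascular), 24.4% (cluster 8), 19.9% (mural) and 18.7% (fibroblast) of the library's Il6. The myeloid cells held little: macrophage-like cells stood at 0.232 CPM, neutrophil-like cells at 3.84 CPM and cluster 7 at 4.69 CPM. Day 0 had 10 Il6 UMIs in all, too few to order its classes.

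Osm, which encodes oncostatin M, was a leukocyte gene in all libraries with enough of them. Neutrophil-like cells of the Vegfc CRE library stood at 309 CPM (290 to 329), 967 UMIs in 28.5% of cells and 56.5% of that library's Osm. Cluster 7 followed at 61.9 CPM (55.4 to 69.0), then dendritic-like cells at 46.2 CPM (12 UMIs), whose level was 25.8 to 27.5 CPM under 4 other ways of clustering or of treating doublets, and macrophage-like cells at 24.2 CPM (21.6 to 27.0). The macrophage-like cells of the Prox1 eGFP day 21 library had nearly the same level, 26.4 CPM (14.8 to 43.6) from 15 UMIs. At day 0, T/NK-like cells held 32 UMIs of Osm, 8.19 CPM.

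Outside the leukocytes Osm was low. Fibroblast-like cells of the Vegfc CRE library stood at 0.736 CPM, with a UMI in 0.559% of cells at a median of 19002.5 UMIs, against 28.5% of neutrophil-like cells at a median of 2041. Summed neutrophil markers stood at 102581 CPM in neutrophil-like and 183 CPM in fibroblast-like cells, and at that ratio Osm would stand at 0.551 CPM in fibroblast-like cells. For macrophage-like cells the same ratio gives 0.616 CPM, below the measured 24.2. Vascular endothelial-like cells, at 2.59 CPM (1.56 to 4.05), also stood above their 0.543 CPM, from 19 UMIs in 10 cells with 8 in a single one, and had 1.503 CPM without that cell. Cluster 8 stood at 0.962 CPM against 0.453 CPM, with 8 of its 22 UMIs in 1 cell and 0.614 CPM without it. These ratios take neutrophil-like cells as the only source of Osm, though cluster 7 and macrophage-like cells held 330 and 313 of its UMIs. Carry-over of Osm RNA between cells was not tested. No Osm UMI was found in the muscle progenitor-like cells of either day, which at the floor of 3 counts allows a level of up to 0.113 CPM at day 7 and 0.141 CPM at day 21. Thinned to 2000 UMIs a cell, with shallower cells left out (643 of the 1349 neutrophil-like cells), the share with an Osm UMI was 24.6% in neutrophil-like cells, 9.66% in cluster 7 and 4.68% in macrophage-like cells.

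Il11 was scarce in every library. The highest levels among classes with at least 10 UMIs were in tenocyte-like cells, at 5.36 CPM (2.57 to 9.86; 10 UMIs) on day 21 and 4.57 CPM (3.20 to 6.32; 36 UMIs) in the Vegfc CRE library. In the latter 17 of the UMIs came from a single cell, and the level without it was 2.42 CPM, while the day 21 level, 1 UMI in each of 10 cells, was 1.34 CPM at a finer clustering and 1.42 CPM without doublet removal. The leading named class of Il11 depended on the clustering: at a finer clustering it was fibroblast-like at day 21 and keratinocyte-like in the Vegfc CRE library. Keratinocyte-like cells stood at 4.46 CPM from 7 UMIs, and fibroblast-like cells at 2.09 CPM (day 21) and 1.62 CPM (Vegfc CRE), or 0.997 and 0.918 CPM with Scrublet's own doublet calls. Because it is large, cluster 8 held 37.9% of the Il11 of the Vegfc CRE library at only 1.92 CPM, 44 UMIs in 40 cells with at most 2 in a cell. Lymphatic endothelial-like cells stood at 0.937 and 0.947 CPM and muscle progenitor-like cells at 0.605 and 0.706 CPM at days 7 and 21. No day 0 class of at least 30 cells had an Il11 UMI.

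Lif, which encodes leukemia inhibitory factor, was likewise low, found in few cells of a class and divided between several classes. Its highest level, 22.3 CPM (12.2 to 37.4) in T/NK-like cells of the Vegfc CRE library, came from 14 UMIs in 6 cells, 9 of them in a single cell, and was 8.04 CPM without it. Cluster 7 stood at 8.44 CPM (6.16 to 11.3; 45 UMIs) and held 20.5% of that library's Lif. Cluster 8 held 27.7% at 2.67 CPM, macrophage-like cells 16.8% at 2.86 CPM and fibroblast-like cells 14.5% at 2.36 CPM. In the Prox1 eGFP line lymphatic endothelial-like cells stood at 1.69 CPM (day 7) and 1.00 CPM (day 21), muscle progenitor-like cells at 0.681 and 1.08 CPM.

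**Figure D2:**
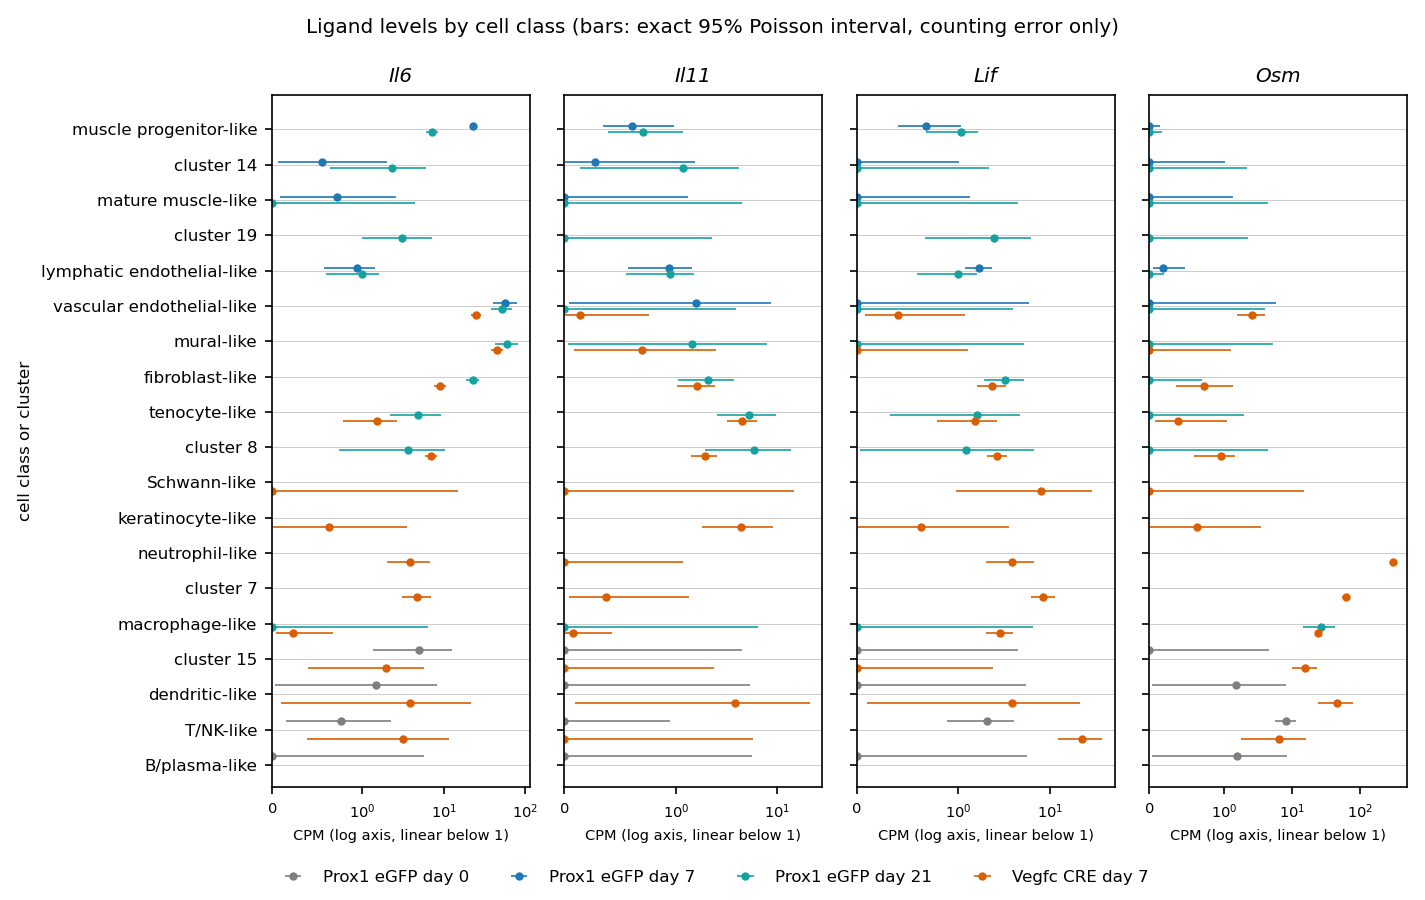
Levels of the 4 ligands (CPM, log axis that is linear below 1) by cell class, coloured by library; points are summed UMIs and bars exact 95% Poisson intervals. Il6 is highest in vascular endothelial-like and mural-like cells, Osm reaches 309 CPM in neutrophil-like cells, and Il11 and Lif stay under 23 CPM in every class.

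Il6ra, the chain that captures interleukin-6, was highest in myeloid cells. In the Vegfc CRE library it stood at 144 CPM (131 to 158) in neutrophil-like cells, 89.5 CPM (81.6 to 97.9) in cluster 7, 81.0 CPM (76.2 to 86.1) in macrophage-like cells and 76.3 CPM (63.1 to 91.4) in cluster 15, the last 3 with overlapping intervals between neighbours. The macrophage-like cells of day 21 stood at 109 CPM (83.7 to 140). At day 0 cluster 15 stood at 78.7 CPM and T/NK-like cells at 60.7 CPM (53.2 to 68.9). The lymphatic endothelial-like cells had a lower level, 12.5 CPM (11.1 to 14.1) on day 7 and 14.2 CPM (12.5 to 16.1) at day 21, yet held 78.3% and 51.9% of the Il6ra UMIs of their libraries. Muscle progenitor-like cells, the main Il6 carriers of day 7, stood at 0.492 CPM that day and 0.423 CPM at day 21. Outside the leukocytes, keratinocyte-like cells (39.5 CPM) were the only named class above 20 CPM.

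Il11ra1, the interleukin-11 chain, had the opposite pattern. It was highest in fibroblast-like cells, at 595 CPM (574 to 616) on day 21 and 548 CPM (535 to 560) in the Vegfc CRE library, where 97.9% of the cells had a UMI. Cluster 8 stood at 455 and 189 CPM and tenocyte-like cells at 376 and 186 CPM in the same pair of libraries. Muscle progenitor-like cells stood at 182 CPM (177 to 187) and 177 CPM (171 to 182) at days 7 and 21, and lymphatic endothelial-like cells at 172 and 147 CPM. Neutrophil-like cells, at 4.80 CPM, were near the bottom. The Il11ra1 values are uncertain because the mouse genome holds near-identical copies: 1 of them, Gm13305, had 81 UMIs beside 9505 of Il11ra1 at day 7 and 2 beside 11760 at day 21, and the others listed had 0.

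Lifr, the LIF receptor, was highest in vascular endothelial-like cells in the main clustering, at 130 CPM (103 to 162) at day 7, 144 CPM (121 to 171) at day 21, with 72.5 CPM (66.5 to 79.0) for the Vegfc CRE library. Macrophage-like cells stood at 56.4 CPM (day 21) and 49.6 CPM (Vegfc CRE). In the Vegfc CRE library the order depended on the clustering and filters. Dendritic-like cells led at 110 CPM at a coarser and 108 CPM at a finer clustering. They also led at 105 and 103 CPM without doublet removal and with Scrublet's own calls. In the main clustering the 42 dendritic-like cells stood last, at 0 CPM, so the name did not cover the same cells in those settings. Macrophage-like cells led at 74.9 CPM with the members in the clustering and 79.0 CPM under a stricter cell filter. Muscle progenitor-like cells stood at 35.8 CPM (33.5 to 38.1) at day 7 and 15.01 CPM at day 21, and lymphatic endothelial-like cells had 25.4 and 22.3 CPM on the same days. Among the stromal classes, mural-like cells stood at 38.5 and 27.0 CPM and fibroblast-like cells at 14.1 and 30.3 CPM at day 21 and in the Vegfc CRE library. Neutrophil-like cells stood at 3.20 CPM.

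Osmr, the oncostatin M receptor, was found in the non-leukocyte classes and was close to absent from leukocytes. Its levels were 79.3 CPM (58.9 to 105) in vascular endothelial-like cells and 63.9 CPM (60.9 to 67.0) in muscle progenitor-like cells at day 7, and 71.2 CPM (61.8 to 81.6) in mural-like cells of the Vegfc CRE library. Lymphatic endothelial-like cells stood at 51.9 and 48.3 CPM at days 7 and 21, fibroblast-like cells at 37.1 and 39.4 CPM and cluster 8 at 38.4 and 44.1 CPM at day 21 and in the Vegfc CRE library. The classes that carried Osm stood at 1.60 CPM (neutrophil-like), 0.849 CPM (macrophage-like) and 0.750 CPM (cluster 7) in the Vegfc CRE library. Osm and Osmr were thus high in different cells.

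Il6st, which encodes the shared chain gp130, was found in every class and was highest in endothelium. Vascular endothelial-like cells stood at 935 CPM (861 to 1013) at day 7, 540 CPM (494 to 589) at day 21, with 310 CPM (297 to 323) for the Vegfc CRE library. There, mural-like cells at 307 CPM and fibroblast-like cells at 297 CPM had intervals overlapping the vascular one. Lymphatic endothelial-like cells stood at 297 CPM (290 to 304) and 274 CPM (266 to 282), and held 63.8% and 59.5% of the Il6st UMIs of days 7 and 21. Muscle progenitor-like cells stood lower, at 96.7 CPM (93.0 to 101) and 59.3 CPM. The lowest class was the neutrophil-like one, at 4.48 CPM with a UMI in 1.04% of cells, so these cells paired a high Il6ra level with little Il6st RNA.

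**Figure D3:**
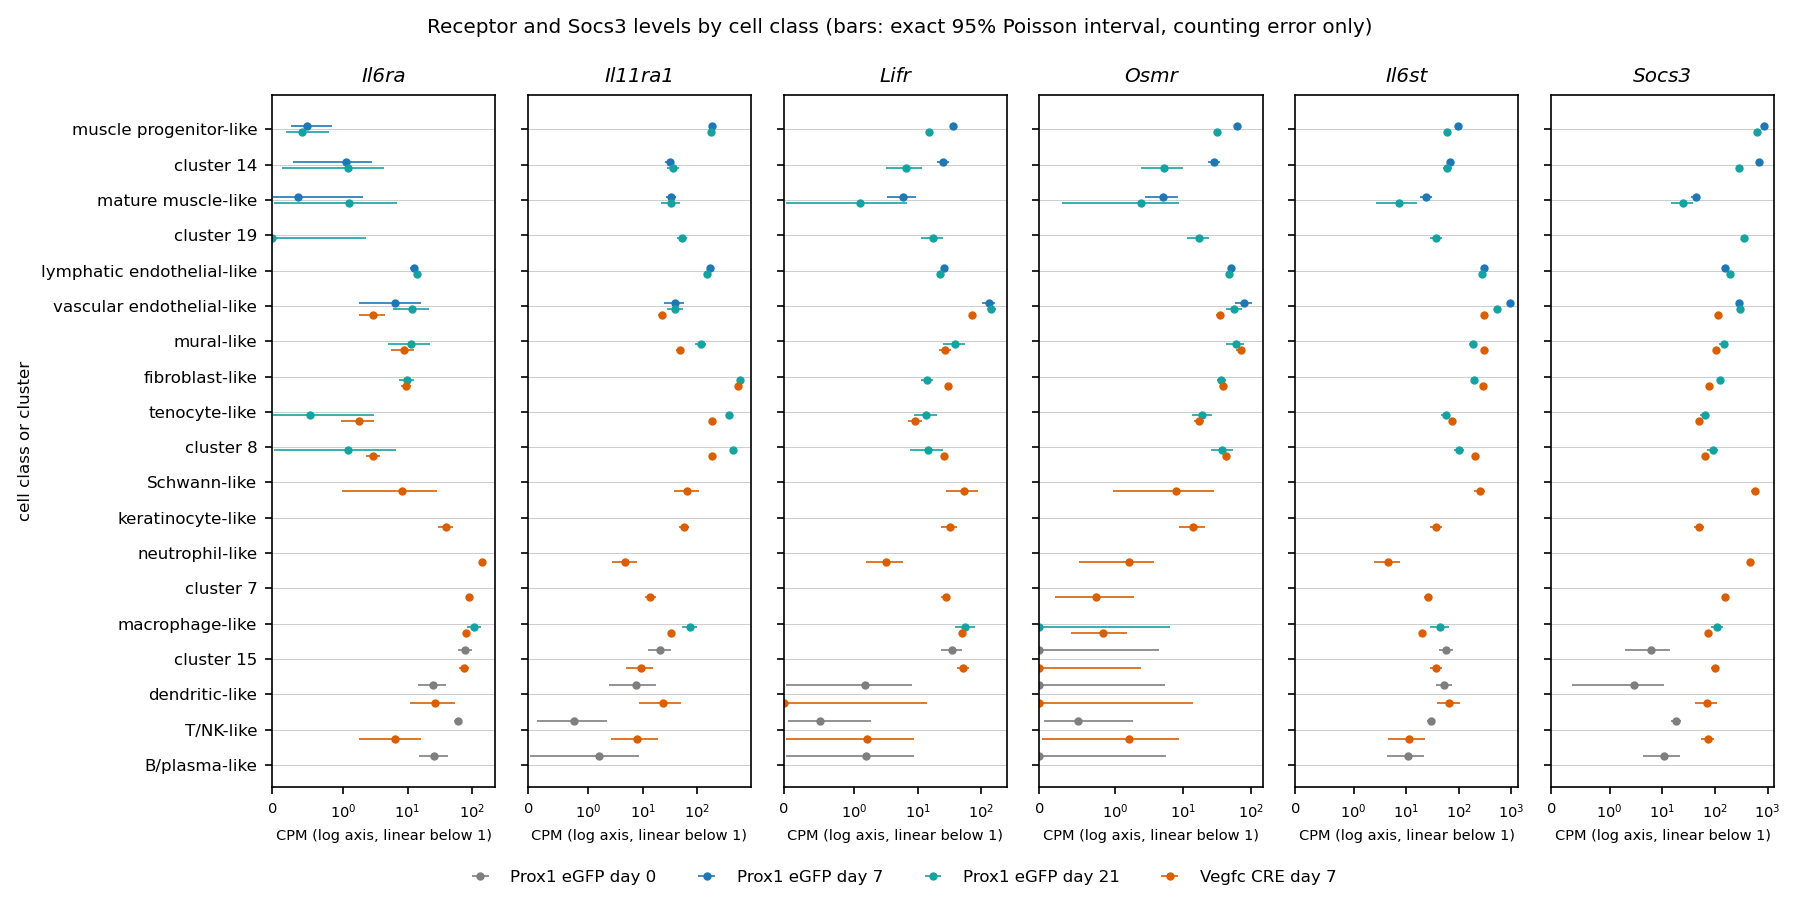
Levels of the 4 partner chains, the shared chain Il6st and the feedback gene Socs3 (CPM, log axis that is linear below 1) by cell class, coloured by library; points are summed UMIs and bars exact 95% Poisson intervals. Il6ra is highest in myeloid classes, Il11ra1 in fibroblast-like cells, Lifr and Il6st in vascular endothelial-like cells, and Osmr is at or under 1.60 CPM in leukocyte classes. The vascular lead in Lifr in the Vegfc CRE library depends on the clustering and filters.

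Cells with a UMI of Il6st and of at least 1 partner chain made up 87.7% of lymphatic endothelial-like cells at day 7 and 62.1% at day 21, and 84.8%, 56.3% and 50% of vascular endothelial-like cells at day 7, at day 21 and in the Vegfc CRE library. Fibroblast-like cells reached 84.9% at day 21 and 92.9% in the Vegfc CRE library, and muscle progenitor-like cells 40.9% and 23.9% at days 7 and 21. These shares depend on depth. At 2000 UMIs a cell they were 18.5% and 15.8% (lymphatic), 45.5%, 20.2% and 14.3% (vascular), 22.1% and 30.5% (fibroblast-like), and 6.73% and 4.57% (muscle progenitor-like). Macrophage-like cells of the Vegfc CRE library had 1.95% at that depth and neutrophil-like cells 0.142%.

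Socs3, the feedback inhibitor, was highest in muscle progenitor-like cells, at 864 CPM (853 to 876) on day 7 and 619 CPM (609 to 630) at day 21, and these cells held 77.6% and 68.2% of the Socs3 of their libraries. Cluster 14, led by the muscle differentiation genes Myog and Mymk, stood at 686 and 284 CPM. Vascular endothelial-like cells stood at 289 CPM (248 to 334) and 300 CPM (265 to 337) at days 7 and 21, and lymphatic endothelial-like cells at 157 and 195 CPM. In the Vegfc CRE library neutrophil-like cells stood at 468 CPM (444 to 492), cluster 7 at 156 CPM, vascular endothelial-like cells at 115 CPM and fibroblast-like cells at 77.4 CPM. Schwann-like cells there stood at 570 CPM from 45 cells, a value that was 220 CPM under a stricter cell filter and 239 CPM at a coarser clustering.

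Immediate early genes, which tissue digestion can induce, were also high in the classes leading in Socs3. A list of 14 such genes (Fos, Junb, Egr1, Atf3 and others) summed to 34593 and 33073 CPM in muscle progenitor-like cells at days 7 and 21 and 24080 CPM in neutrophil-like cells. The same sum was 9786, 11743 and 4193 CPM in vascular endothelial-like cells (day 7, day 21, Vegfc CRE), 4736 and 5851 CPM in the lymphatic class on days 7 and 21, and 1808 to 3440 CPM in tenocyte-like cells. All 14 were detected in both muscle progenitor-like groups. The part of this list in the Socs3 levels was not tested. Within muscle progenitor-like cells of day 7, those with an Il6 UMI had a Socs3 level of 947 CPM against 858 CPM in those without, a list sum of 33557 against 34670 CPM and a median of 8218 against 7486 UMIs a cell. At day 21 Socs3 stood at 844 against 613 CPM and the list at 36744 against 32965 CPM. These values pool clusters. Within cluster 0 at day 21 Socs3 stood at 872 against 603 CPM and the list at 40903 against 33357 CPM. Within cluster 1 they stood at 800 against 681 CPM and 30246 against 30310 CPM. At day 7 the list stood at 33558 against 31767 CPM in cluster 0 and 33623 against 35214 CPM in cluster 1.

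Receptor levels differed between clusters of a class. In the Vegfc CRE library the macrophage-like cluster led by Cd163 and Folr2 had Lifr at 196 CPM and the one led by Arg1 and Trem2 at 15.3 CPM, a ratio of 12.8 (10.7 to 15.4; intervals of ratios are exact conditional binomial and cover counting error only). The Cd163 cluster also stood higher in Il6ra (128 against 70.1 CPM) and Il6st (36.3 against 16.5 CPM), and lower in Osm (13.9 against 26.6 CPM). Of the vascular endothelial-like clusters, the one led by Vwf, Ackr1 and Selp, genes of venules, had Il6st at 861 CPM and the one led by Car4 and Aqp7, genes of capillaries, at 126 CPM at day 21, with 340 against 156 CPM in the Vegfc CRE library. Lifr did not keep one direction between these clusters, with a ratio of 2.11 at day 21 and 0.748 in the Vegfc CRE library. Of the larger lymphatic clusters, cluster 2 stood above cluster 6 in Il6st (443 against 162 CPM at day 7, 350 against 163 CPM at day 21) and Lifr (ratios 3.80 and 4.31), while Osmr (1.27 and 1.03) differed little. The clusters were built on other genes of the same cells, so these ratios describe them and test nothing.

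**Figure D4:**
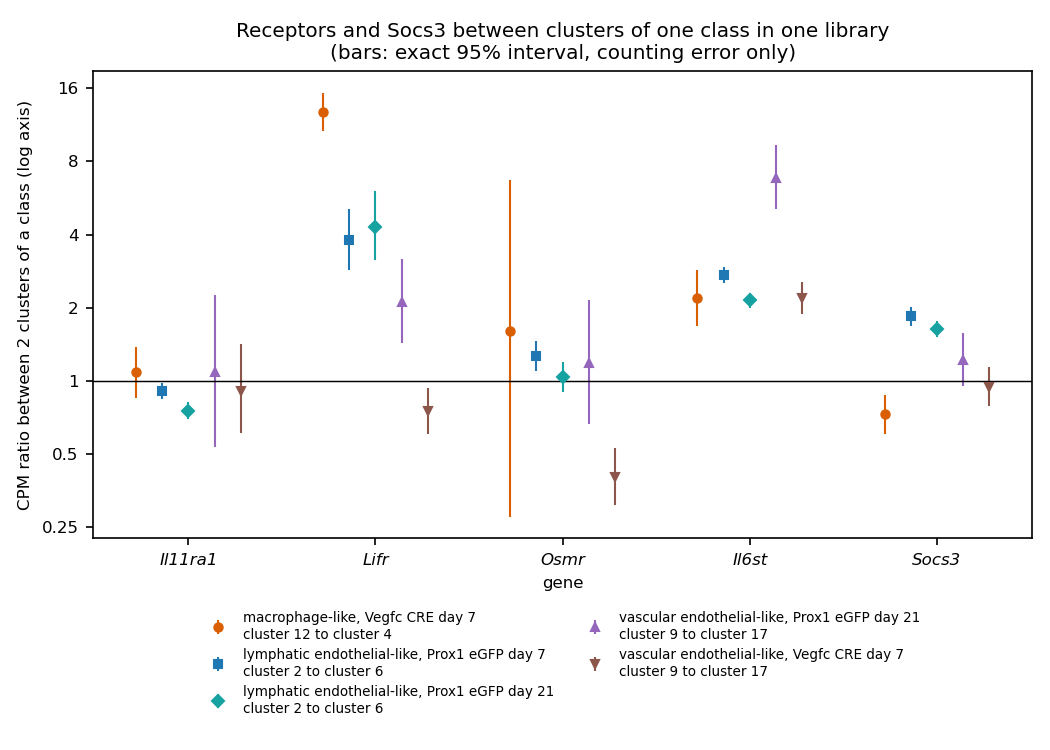
Ratio of levels (CPM, log axis) between 2 clusters of a class within a library, for Il11ra1, Lifr, Osmr, Il6st and Socs3; bars are exact 95% intervals for counting error. Lifr in macrophage-like clusters (12.8) and Il6st in vascular endothelial-like clusters at day 21 (6.85) lie farthest above 1.

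Prox1 eGFP day 21 was compared with day 7 in 5 classes. The day 7 file lists 27998 genes and the day 21 file 32285, and the part of this in the ratios against day 7 was not tested. In muscle progenitor-like cells Il6 stood at 7.20 against 22.7 CPM, a ratio of 0.317 (0.264 to 0.379), and Lifr at 15.01 against 35.8 CPM, a ratio of 0.419 (0.368 to 0.477). Osmr (0.503, 0.459 to 0.550), Il6st (0.613, 0.573 to 0.656) and Socs3 (0.716, 0.701 to 0.732) were also below 1, whereas Il11ra1 stood at 0.970 (0.929 to 1.01). The scarce Lif (1.59, 0.821 to 3.12), Il11 (1.17) and Il6ra (0.861) were not separable from 1 by their counts. Of the 9 members with at least 10 UMIs in the pair of libraries, 2 were at least 2-fold lower and 0 higher, where 11.1% of 13592 genes were lower and 3.57% higher. The members' median log2 ratio was -0.48, that of all genes -0.25.

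The muscle progenitor-like difference in Il6 went along with an unequal split of the libraries between clusters. Cells of all 4 libraries were clustered together without batch correction. A difference in cell state and a difference between libraries therefore cannot be told apart in this split. Cluster 1 held 2732 of the day 7 cells and 422 of the day 21 cells, cluster 0 541 and 2687. Il6 stood at 26.0 CPM in cluster 1 and 6.91 CPM in cluster 0 at day 7, and at 17.8 and 5.49 CPM at day 21. Within cluster 0 the day 21 to day 7 ratio of Il6 was 0.795 (0.521 to 1.25), and within cluster 1 it was 0.685 (0.508 to 0.907), so neither reached 2-fold. Lifr kept ratios of 0.518 and 0.467 within the clusters, Il6st 0.808 and 0.685, Osmr 0.622 and 0.814, and Socs3 0.807 and 0.779.

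Lymphatic endothelial-like cells showed close levels on both days. None of the 9 members with enough UMIs was 2-fold apart, where 8.1% of 13560 genes were lower and 3.81% higher, and the median log2 ratio was -0.10 for members and -0.16 for all genes. Socs3 had a ratio of 1.24 (1.18 to 1.30), Il6st 0.923 (0.889 to 0.958), Osmr 0.932, Lifr 0.876, Il11ra1 0.857 and Il6ra 1.14. The widest was Lif, at 0.595 (0.318 to 1.07). Il6st passed to the other side of 1 under another scaling (1.03 with TMM factors) and within cluster 6 (1.01).

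Vascular endothelial-like cells (103 against 33) had none of 7 members 2-fold apart, where 11.8% of 9432 genes were lower and 7.02% higher. Il6st stood at a ratio of 0.578, Osmr at 0.720, Il6 at 0.905, Il11ra1 at 1.02, Socs3 at 1.04 and Lifr at 1.11. The scarce Il6ra stood at 11.9 CPM (5.92 to 21.2) against 6.35 CPM (1.73 to 16.3). It passed 2-fold without doublet removal, with Scrublet's own calls and with TMM factors. Il6st passed 2-fold with Scrublet's own calls, and Il6 with each cell weighted alike. The cells were not the same mix: cluster 9 supplied 29 of the 33 cells at day 7 and 52 of the 103 at day 21, and within cluster 9 at day 21 Il6st stood at 861 CPM, near the 935 CPM of the day 7 class. In cluster 14, 3 of 5 members were at least 2-fold lower, namely Osmr (0.180), Lifr (0.257) and Socs3 (0.414), where 22.2% of genes were lower and 4.11% higher. In mature muscle-like cells 3 of 5 were lower, namely Il6st (0.303; 0.113 under a stricter cell filter), Osmr (0.483, 2 against 14 UMIs; 0.766 with each cell weighted alike) and Lifr (0.211, 1 against 16 UMIs), where 12.6% of genes were lower and 7.85% higher.

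**Figure D5:**
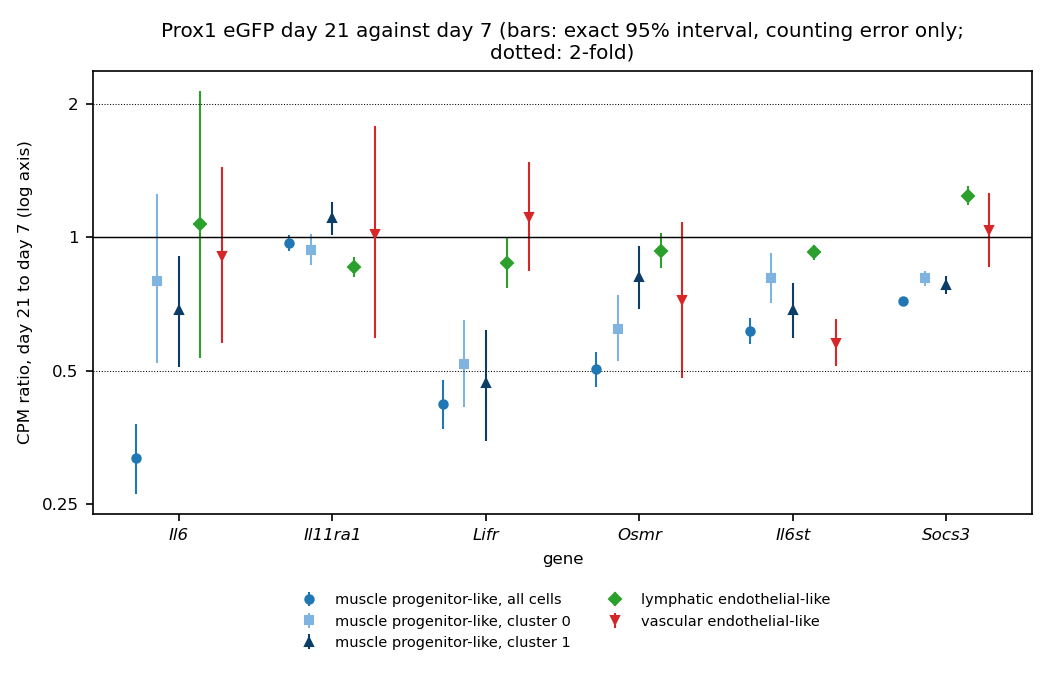
Ratio of levels (CPM, log axis) in the Prox1 eGFP line at day 21 to day 7 for 6 members, in muscle progenitor-like cells together and within clusters 0 and 1, in lymphatic and in vascular endothelial-like cells; bars are exact 95% intervals for counting error and dotted lines mark 2-fold. Il6 lies at 0.317 in all muscle progenitor-like cells but at 0.795 and 0.685 within the clusters.

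Other genes of the pathway were counted from 3 lists, and the immediate early list above is given beside them. Of the other family ligands and receptors in muscle progenitor-like cells, 1 of 5 with enough UMIs was higher at day 21: Cntf, the ciliary neurotrophic factor, had 17 UMIs against 0, at least 7.05-fold. Whether the 0 at day 7 comes from the other gene list of that file was not tested. Of 8 kinases, STATs and the phosphatase Ptpn11, 1 was lower, Stat5a (0.414), and of 9 feedback and response genes 1, Cish (0.281). Over all genes of this class 11.1% were lower, near these shares, and 3.57% were higher. In lymphatic endothelial-like cells the only pathway gene past 2-fold was Il27ra (0.344), a receptor of interleukin-27. In vascular endothelial-like cells Socs1 (3.40) was among the higher, and Il27ra (0.340), Stat5a (0.475) and Cebpb (0.382) lower. In cluster 14 the lower genes included Clcf1 (0.342), Jak2 (0.472), Pias3 (0.0816) and Timp1 (0.374), and in mature muscle-like cells Jak2 (0.260), Stat5a (0.154), Cish (0.483) and Timp1 (0.282). Over all genes 8.1% were lower and 3.81% higher in lymphatic and 11.8% and 7.02% in vascular endothelial-like cells. The shares were 22.2% and 4.11% in cluster 14 and 12.6% and 7.85% in mature muscle-like cells. Of the 14 immediate early genes Atf3 was higher in muscle progenitor-like cells (2.22) and lymphatic endothelial-like cells (2.04). Fosb was lower in muscle progenitor-like cells (0.317). The list medians of these 2 classes were -0.02 and 0.27 on the log2 scale, in that order. None of the 14 was 2-fold apart in vascular endothelial-like cells. Cluster 14 had Atf3 (3.58) and Nr4a1 (3.36) higher and Fosb (0.371) and Ier3 (0.458) lower. Mature muscle-like cells had Egr1 (2.83), Hspa1a (4.78), Hspa1b (3.25) and Btg2 (2.12) higher and Fosb (0.499) lower.

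Between the day 7 libraries only vascular endothelial-like cells could be compared, 636 in the Vegfc CRE library and 33 in the Prox1 eGFP library. Il6st stood at 310 against 935 CPM, a ratio of 0.331 (0.302 to 0.363), Socs3 at 115 against 289 CPM (0.399) and Il6 at 25.1 against 57.1 CPM (0.439, 0.306 to 0.647). The Il6 difference rests on 1 cell: without the day 7 cell that held 18 of 36 UMIs the Prox1 eGFP level was 29.8 CPM, and Il6 was not past 2-fold. Osmr (0.443) and the scarce Il6ra (0.451, 0.152 to 1.81; 0.756 without doublet removal and 0.614 with Scrublet's own calls) were also past 2-fold, and Lifr (0.557) and Il11ra1 (0.584) were not. In all, 5 of 8 members were at least 2-fold lower and 0 higher, where 15.7% of 11868 genes were lower and 6.84% higher, with a median log2 ratio of -1.16 for members and -0.23 for all genes. The remaining member, Osm, had 19 UMIs against 0, and no direction can be read against the small Prox1 eGFP total. With TMM factors, which move the median of all genes by 0.23, 2 of the 5 remained (Il6st and Socs3), and with each cell weighted alike 3 (Il6, Il6st and Socs3). Within cluster 9, the source of 29 of the 33 Prox1 eGFP cells, the Vegfc CRE library stood at 340 CPM for Il6st, 114 CPM for Socs3 and 26.3 CPM for Il6.

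The immediate early list was lower in this pair as well. It summed to 4193 against 9786 CPM, and 11 of its 14 genes were at least 2-fold lower, namely Fos (0.1702), Egr1 (0.190), Dusp1 (0.216), Fosb (0.254), Junb (0.268), Ier3 (0.294), Nr4a1 (0.302), Atf3 (0.315), Zfp36 (0.317), Ier2 (0.352) and Jun (0.360), while Hspa1b was higher (2.18), with a list median of -1.70. Its part in the members' ratios was not tested. Of 9 feedback and response genes 3 were lower, Cebpb (0.206), Pim1 (0.221) and Cish (0.328), and of 8 kinases and STATs 0, with Stat3 at 0.548. Over all genes of this pair 15.7% were lower and 6.84% higher. Of the other ligands and receptors, Clcf1 was past 2-fold higher, though against 1 UMI (38 in the Vegfc CRE cells). Mouse line, cell mix and the gene list of the file differ between these libraries and cannot be told apart, and the labels do not settle which libraries were sorted.

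The Vegfc CRE library was set beside Prox1 eGFP day 21 in 6 stromal, vascular and myeloid classes, which differ in line and day. Vascular endothelial-like cells had 3 of 8 members lower (Il6 0.485, Il6ra 0.242, Socs3 0.385), where 10.3% of genes were lower and 9.05% higher. Of the 14 immediate early genes 12 were lower too. Without the day 21 cell that held 17 of 48 Il6 UMIs the day 21 level was 34.7 CPM, and Il6 was not past 2-fold. The class mixed its clusters differently. Clusters 9 and 17 gave 486 and 150 cells in the Vegfc CRE library against 52 and 51 at day 21. The part of this mix in the ratios was not tested. Fibroblast-like cells had Il6 lower (0.400, 0.309 to 0.519) and Lifr higher (2.16, 1.68 to 2.80) of 10 members, where 4.92% of genes were lower and 6.46% higher. Of the immediate early genes 3 were lower there. The immediate early list had 10 of 14 genes lower in tenocyte-like cells and in cluster 8, and 6 of 14 in mural-like and in macrophage-like cells. Its part in these ratios was not tested. In mural-like cells Il11ra1 (0.422) was the only one of 7 past 2-fold (11.8% lower, 12.3% higher). In tenocyte-like cells Il11ra1 (0.496) and Il6 (0.315) were lower and Il6ra higher (3.31, from 14 against 1 UMIs) of 9 (9.86% lower, 8.6% higher). That Il6 difference depends on how cells were grouped: its Vegfc CRE level of 1.52 CPM was 5.51 to 8.41 CPM under 4 other ways of clustering or of treating doublets, above the 4.83 CPM of day 21. Il11ra1 stood at 265 against 490 CPM with Scrublet's own calls, short of 2-fold. In cluster 8, with 39 cells at day 21, Il11ra1 (0.416) and Il11 (0.321) were lower and Lif (2.22) and Il6ra (2.41) higher, each of the last pair against 1 UMI, of 10 members (12.5% of genes lower, 8.06% higher). In macrophage-like cells Il11ra1 (0.453) and Il6st (0.460) were lower of 8 (10.8% of genes lower, 6.86% higher), and neither was past 2-fold at a finer clustering (29.3 against 55.0 CPM and 21.9 against 41.7 CPM). Il6st stood higher in the Vegfc CRE library in cluster 8 (1.97), mural-like (1.65), fibroblast-like (1.504) and tenocyte-like cells (1.32), and lower in vascular endothelial-like cells (0.573), where the ratio was 0.395 within cluster 9 and 1.24 (0.903 to 1.72) within cluster 17.

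The day 0 library allowed 3 leukocyte comparisons with the Vegfc CRE library. B/T, day, mouse line and the cells held differ together in this pair and cannot be told apart. Socs3 stood higher in the Vegfc CRE library in all 3 comparisons: 73.3 against 18.4 CPM in T/NK-like cells (3.98, 2.69 to 5.84), 98.4 against 6.15 CPM in cluster 15 (16.01, 6.71 to 50.03) and 18 against 2 UMIs in dendritic-like cells (23.5, 5.62 to 209). Osm was found 24 times against 0 in cluster 15, at least 4.24-fold higher, and 12 times against 1 in dendritic-like cells (31.3, 4.63 to 1339). In T/NK-like cells Il6ra stood at 6.38 against 60.7 CPM (0.105, 0.0284 to 0.273) and Il6st at 11.2 against 30.2 CPM (0.369), and Lif at 22.3 against 2.05 CPM with 9 of 14 UMIs from 1 cell. So 2 of 5 members were higher and 2 lower in T/NK-like cells (12.9% and 14.4% of genes), 2 and 1 of 6 in cluster 15 (14.1% and 10.5%), and 3 and 0 of 5 in dendritic-like cells (10.5% and 27.2%). The immediate early list had 8, 3 and 4 of 14 genes higher and 0, 1 and 4 lower in these classes. Its T/NK-like sum was 9046 against 3174 CPM. The part of this list in the members' ratios was not tested.

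Across the 33 combinations, the genes whose log2(CPM + 1) followed a member most closely by Pearson's r, among 13561 genes reaching 10 CPM in at least 1 combination, were as follows. These r describe combinations that share libraries, and carry no p. Osmr was closest to Phldb2 (0.96), Ehd2 (0.95) and Tns2 (0.95), Osm to Oas3 (0.95), Ccr1 (0.92) and Pilrb1 (0.91), and Socs3 to Fbxo30 (0.91), Atf4 (0.89) and Rab6a (0.87). Il6st was closest to Cdc42bpb (0.89), Tax1bp3 (0.86) and Dip2a (0.85), Il11ra1 to Ltbp3 (0.89), Fkbp7 (0.88) and Neo1 (0.87), and Il6ra to Cyth4 (0.88), Prkcd (0.87) and Slc15a3 (0.86). Lifr was closest to Stard9, Ctnnd1 and Stx12 (0.84 each). For the scarcer ligands r was lower: Il6 with Kcnj8 (0.80), Vtn (0.79) and Hrct1 (0.78), Il11 with Ndrg4 (0.82), Efna4 (0.80) and Wnt16 (0.77), and Lif with Cma1 (0.70), Saa3 (0.61) and Spidr (0.60). Kcnj8 is a pericyte channel gene and was 1 of the markers that named the mural-like cells.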

How the data were processed

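The authors deposited raw UMI counts per gene and cell for 4 10x 3' libraries, made with Cell Ranger 5.0.1 on mm10 per the submitters' processing notes. The day 7 Prox1 eGFP file lists 27998 genes and the others 32285; the 27040 shared identifiers were used. Cells needed 500 genes, 1000 UMIs and under 15% mitochondrial UMIs, and the highest Scrublet scores were removed at 0.8% per 1000 cells (Scrublet's own threshold marked 0 to 92 cells a library, so it was not used as the main rule). Clusters came from scanpy 1.11.5 and leidenalg 0.10.2 (2000 variable genes less the held-out ones, 30 principal components, 15 neighbours, resolution 1, seed 0), with marker names fixed in a list. Counts were summed per class and library and divided by the class total (CPM). With 1 library a group no test was made: intervals are exact and cover counting error only. A gene counted as 2-fold apart needed 10 UMIs in the pair together, and a fold against 0 was set against 3 counts. Factors by trimmed mean of M-values (TMM) came from edgeR 4.0.16 as an alternative. The code was tested on simulated data. The members and lists were chosen with earlier results of these data known. Named genes are the 10 members, pathway genes 2-fold apart in a comparison with Prox1 eGFP day 7, and the 3 genes most alike each member. Cebpd was not found in the shared list. Some pathway genes of the lists are not reported here.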

Additional observations from a re-analysis of the deposited data

Results flagged for a closer look

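Some members stood on opposite sides of 1 in different classes for the same pair of libraries, with 95% counting intervals that both leave out 1. The difference between the classes was not tested. From day 7 to day 21 in the Prox1 eGFP line the Socs3 ratio was 1.24 (1.18 to 1.30) in lymphatic endothelial-like cells, but 0.716 (0.701 to 0.732) in muscle progenitor-like cells, 0.563 (0.332 to 0.909) in mature muscle-like cells (0.163 with each cell weighted alike) and 0.414 (0.375 to 0.456) in cluster 14.

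For Vegfc CRE day 7 against Prox1 eGFP day 21, Lifr had a ratio of 2.16 (1.68 to 2.80) in fibroblast-like cells and 1.80 (1.02 to 3.50) in cluster 8, against 0.502 (0.415 to 0.612) in vascular endothelial-like cells. Il6st in the same pair had ratios of 1.97 (1.59 to 2.47) in cluster 8, 1.65 (1.37 to 2.004) in mural-like, 1.504 (1.40 to 1.61) in fibroblast-like and 1.32 (1.07 to 1.64) in tenocyte-like cells, against 0.573 (0.520 to 0.633) in vascular endothelial-like and 0.460 (0.304 to 0.723) in macrophage-like cells. The vascular values differ between the clusters of that class: within cluster 9 the ratio was 0.366 for Lifr and 0.395 for Il6st, and within cluster 17 it was 1.03 (0.705 to 1.55) and 1.24 (0.903 to 1.72), with intervals that include 1. So the opposite side of 1 held within cluster 9 but not within cluster 17.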

How the results depend on the processing

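No paired analysis was possible because each group has 1 library. Of 120 counts of members 2-fold apart recomputed under the alternatives, 104 held within 1.5 times and 16 moved; the cause was not tested unless the setting itself gives it. In muscle progenitor-like cells at day 21 against day 7, 2 lower members became 4 at 1.5-fold (Il6, Lifr, Osmr, Il6st) and 0 within cluster 0, and 0 higher became 1 (Lif) at 1.5-fold and within cluster 1. In lymphatic endothelial-like cells 0 lower became 1 (Lif) at 1.5-fold and within cluster 2. In mature muscle-like cells 0 higher became 1 (Il6ra) when 1 UMI sufficed. In vascular endothelial-like cells 0 lower became 1 with Scrublet's own calls and at 1.5-fold (Il6st) and with each cell weighted alike (Il6), and 0 higher became 1 without doublet removal, with Scrublet's own calls, with TMM factors and at 1.5-fold (Il6ra). For Vegfc CRE against Prox1 eGFP day 7, 5 lower became 2 with TMM factors and 3 with each cell weighted alike.

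Of 378 ratios recomputed, 331 held, 44 moved and 3 crossed 1: lymphatic Il6st was 1.03 with TMM factors and 1.01 within cluster 6, and lymphatic Lifr 1.07 within cluster 18. TMM factors moved the median log2 ratio of all genes by 0.23 in muscle progenitor-like, 0.15 in lymphatic and 0.16 in vascular endothelial-like cells at day 21 against day 7. Of 1110 levels 917 held. Those in tenocyte-like and Schwann-like cells moved most often, and Il11, Lif and vascular Il6 are limited by low UMI counts. The within-cluster settings were chosen after seeing the data.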
